A study of Mus musculus with 6 samples.

Results

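SP8 peaks whose centre lay within 1000 bp of the start or end of a protein-coding gene were described here, in the ectoderm of mouse forelimb buds at E10.5. The authors' list for SP8 replicate 1 held 1451 peaks, of which 1447 were on chromosomes 1 to 19 and X, and 528 of those (36.5%, 95% Wilson interval 34.0 to 39.0) met this rule. They marked 605 of 21523 protein-coding genes, or 2.81%, and this share is the background for each gene group below. A gene is called marked when a peak centre lay within 1 kb of either of its ends.

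The study sequenced chromatin immunoprecipitated from limb ectoderm of mice on the C57BL6J background. Libraries for SP8 came from homozygous embryos carrying a knock-in Sp8 allele with a FLAG tag, labelled Sp8FL KI, with 2 anti-FLAG immunoprecipitations and 2 inputs without antibody. A further 1 immunoprecipitation of dimethylated histone H3 lysine 4 and 1 input were labelled WT, although the protocol text speaks of tagged embryos, and these 6 libraries form 4 groups. Ectoderm of 50 forelimb buds was pooled for each replicate, and every SP8 library carried the tagged allele, so no untagged control immunoprecipitation is among the samples described. Only the SP8 replicate 1 list was analysed. Its read depth is unknown, its peaks have no replicate check, and no test between groups was made. Wilson intervals below cover counting error over peaks or genes and not variation between embryos.

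SP8 belongs to the SP and KLF proteins, DNA-binding regulators with zinc fingers. Its relatives bind GC-rich DNA, above all the GC box and the related CACCC box, and SP8 is known in the limb for its part in forming the apical ectodermal ridge, the epithelial rim whose FGF signals keep the bud growing. Many gene promoters lie in CpG islands, stretches rich in G, C and the dinucleotide CpG, while others are CpG-poor and often carry a TATA box. Homeodomain proteins such as those of the Dlx and Msx genes bind AT-rich sites with a TAAT core.

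The promoters of 8 marked genes show the sequence that these peaks overlapped, in whole or in part, at the limb ectoderm gene Msx2, at 4 genes of the SP and KLF family, and at 3 of the members with the lowest numbers in the list. Each runs from 250 bp before to 50 bp after a transcription start, 5′ to 3′ on the strand of the gene, from RefSeq on GRCm38.p6. Capitals mark the GC box GGGCGG or its complement CCGCCC.
Msx2: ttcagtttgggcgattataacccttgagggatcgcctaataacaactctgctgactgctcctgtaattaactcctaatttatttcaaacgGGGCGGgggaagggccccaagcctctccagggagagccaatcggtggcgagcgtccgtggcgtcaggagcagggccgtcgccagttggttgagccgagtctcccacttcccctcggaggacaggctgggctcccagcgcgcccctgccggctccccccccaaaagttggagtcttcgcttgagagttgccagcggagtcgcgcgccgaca
Klf3: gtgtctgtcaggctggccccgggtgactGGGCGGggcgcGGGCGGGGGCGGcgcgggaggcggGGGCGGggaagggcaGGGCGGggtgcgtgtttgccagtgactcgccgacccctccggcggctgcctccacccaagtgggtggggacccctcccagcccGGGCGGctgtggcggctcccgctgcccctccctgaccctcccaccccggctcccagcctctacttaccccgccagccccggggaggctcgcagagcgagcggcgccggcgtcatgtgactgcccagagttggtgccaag
Sp4: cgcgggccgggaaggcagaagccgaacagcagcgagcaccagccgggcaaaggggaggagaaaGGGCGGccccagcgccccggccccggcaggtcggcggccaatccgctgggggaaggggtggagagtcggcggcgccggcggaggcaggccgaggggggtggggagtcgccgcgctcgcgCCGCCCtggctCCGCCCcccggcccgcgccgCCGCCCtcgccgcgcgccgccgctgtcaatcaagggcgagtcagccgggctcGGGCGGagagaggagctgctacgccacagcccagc
Sp3: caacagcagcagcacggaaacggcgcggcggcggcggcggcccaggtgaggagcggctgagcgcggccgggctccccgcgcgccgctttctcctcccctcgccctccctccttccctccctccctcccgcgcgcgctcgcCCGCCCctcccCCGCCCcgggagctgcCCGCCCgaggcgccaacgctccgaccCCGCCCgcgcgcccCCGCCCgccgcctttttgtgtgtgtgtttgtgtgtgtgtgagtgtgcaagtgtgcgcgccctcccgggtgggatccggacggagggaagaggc
Klf13: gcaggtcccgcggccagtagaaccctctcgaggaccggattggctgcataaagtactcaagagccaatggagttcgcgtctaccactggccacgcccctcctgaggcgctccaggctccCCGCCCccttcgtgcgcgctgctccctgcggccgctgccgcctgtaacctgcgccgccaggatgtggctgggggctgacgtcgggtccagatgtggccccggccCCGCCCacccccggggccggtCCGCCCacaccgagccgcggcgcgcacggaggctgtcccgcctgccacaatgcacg
Tma16: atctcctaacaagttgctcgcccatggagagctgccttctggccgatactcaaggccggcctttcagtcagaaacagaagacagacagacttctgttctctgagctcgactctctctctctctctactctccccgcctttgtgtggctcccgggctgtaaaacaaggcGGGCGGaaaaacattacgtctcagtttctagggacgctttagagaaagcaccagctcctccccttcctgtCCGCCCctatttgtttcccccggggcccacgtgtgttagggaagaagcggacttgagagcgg
Coa5: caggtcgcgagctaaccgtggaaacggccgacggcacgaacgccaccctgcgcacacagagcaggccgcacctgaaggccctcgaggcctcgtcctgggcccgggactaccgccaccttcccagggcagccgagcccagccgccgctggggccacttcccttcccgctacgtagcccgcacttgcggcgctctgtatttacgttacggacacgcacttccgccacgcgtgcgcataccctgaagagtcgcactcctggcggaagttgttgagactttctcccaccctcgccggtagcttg
Snx25: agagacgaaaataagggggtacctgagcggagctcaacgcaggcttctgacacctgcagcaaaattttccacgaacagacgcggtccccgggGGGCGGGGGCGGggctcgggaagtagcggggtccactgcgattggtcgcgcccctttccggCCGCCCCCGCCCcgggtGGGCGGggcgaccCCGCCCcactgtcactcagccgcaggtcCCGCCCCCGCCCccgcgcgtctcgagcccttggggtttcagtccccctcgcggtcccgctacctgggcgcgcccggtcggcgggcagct

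Msx2 encodes a homeodomain repressor of the ridge and the distal limb bud. Its promoter, chr13:53472731-53473030 on the minus strand, held 1 GC box and 1 TAATTA site, and the peak at chromosome 13, 53472769 to 53473504, covered 262 of the 300 bases. In the Klf3 promoter (chr5:64803271-64803570, plus strand) there were 6 GC boxes, and the 766 bp peak at 64802967 to 64803733 covered it whole. Sp4 (chr12:118301391-118301690, minus strand) and Sp3 (chr2:72979232-72979531, minus strand) each had 5 GC boxes. The Sp4 peak covered all 300 bases, while the Sp3 peak covered 98, and 0 of the 5 Sp3 boxes were under it. Klf13 (chr7:63938866-63939165, minus strand) had 3, under a peak of 2080 bp that was the second widest of the 528. The 3 promoters from the top of the list spanned a wider range: Snx25, a sorting nexin (chr8:46152392-46152691, minus strand), had 8 GC boxes, the ribosome-associated gene Tma16 (chr8:66486481-66486780, minus strand) had 2, and Coa5, a cytochrome oxidase assembly factor (chr1:37430054-37430353, minus strand), had 0. Coa5 still had a peak of 662 bp centred 11 bp from its start, and its sequence held 2 CACCC boxes.

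The members lay at gene starts far more often than at gene ends. Strand was known for 17274 of the genes. Each peak was counted only at the nearer end of a gene, although in short genes both ends can lie within 1 kb of a centre. Counted so, 439 5′ ends (2.54%) and 42 3′ ends (0.243%) of these genes had a peak centre within 1 kb. The counts of peaks follow the same rule. Of the 528 peaks, 394 (74.6%, 70.7 to 78.1) were at the 5′ end of a gene of known strand, 19 (3.60%) were at 3′ ends only, and 115 (21.8%) were at genes whose strand was not given. Among the 413 peaks that could be placed, 95.4% were thus at a 5′ end.

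At 5′ ends the centres gathered closely around the start. The median distance was 156.5 bp (quartiles 63.5 and 361.75), although the rule allowed up to 1000 bp. Within 100 bp of the start there were 85 centres upstream and 56 downstream. At 100 to 200 bp the counts were 46 and 42. From 200 bp outwards more centres were downstream than upstream, with 13 upstream and 24 downstream at 200 to 300 bp and 12 centres upstream and 42 downstream at 500 to 1000 bp. In all, 218 centres (55.3%, 50.4 to 60.2) were inside the gene and 176 upstream of it. The start here is the outer end of the gene, and further transcription starts can be listed inside it. The centre 796 bp inside Rdx was 5 bp from a listed start, while the centre 998 bp inside Zbtb2 had none nearer than 998 bp. Centres counted as downstream can therefore lie at another start of the gene. The peak interval covered the nearest boundary in 294 of 528 peaks (55.7%).

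**Figure D1:**
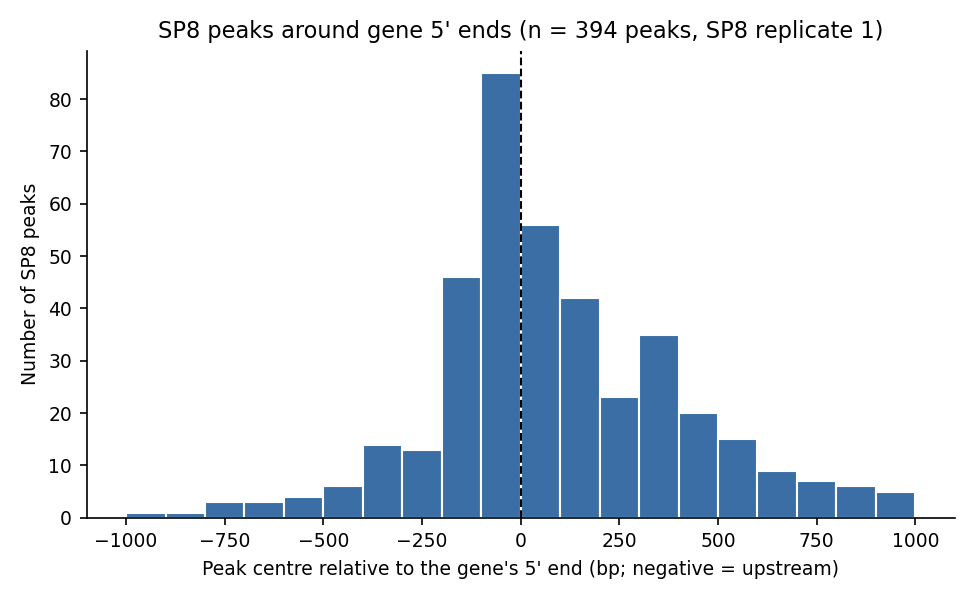
Number of SP8 peaks (vertical axis) by the position of the peak centre in bp (horizontal axis, bins of 100 bp, negative values upstream). Positions are relative to the nearest marked 5′ end of known strand, for the 394 peaks at such an end. A gene end of another kind can lie nearer. The highest bin, of 85 peaks, is the one just upstream of the start, and the downstream side falls off more slowly. The 5′ end is the outer end of the gene, and other listed starts inside it are not shown.

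The 19 peaks at 3′ ends only were farther from their boundary, with a median of 572 bp, and 2 of the 19 had any listed transcription start of another or the same gene within 1 kb. Dlx2, a homeodomain gene of the ridge, belonged to this group: its 278 bp peak (chromosome 2, 71543290 to 71543568) had its centre 21 bp inside the 3′ end and 3325 bp from the nearest listed start. The 3′ end peak of Bmp8a, a BMP ligand, was at chromosome 4, 123311905 to 123312257, 564 bp beyond the gene. Junb, an AP-1 transcription factor, is a gene of only 1840 bp and had a 765 bp peak (chromosome 8, 84976822 to 84977587) at its 3′ end. Nr2f2, an orphan nuclear receptor, had a peak 829 bp beyond its 3′ end and another member 861 bp upstream of its 5′ end. The promoters of the 20 genes at these peaks were CpG-rich in 9 cases (45%), against 352 of 439 (80.2%) for genes marked at the 5′ end.

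Most members marked a single gene, and 78 of 528 (14.8%, 12 to 18.1) marked 2 or more. A peak of 315 bp on chromosome 17 (47611371 to 47611686) lay 36 bp from Bysl, a ribosome assembly factor, and 57 bp from Med20, a Mediator subunit, where the gene model Gm20517 also starts. A 199 bp peak on chromosome 13 (100650997 to 100651196) marked Rad17, Ak6 and Taf9, and a 502 bp peak on chromosome 8 (94601606 to 94602108) marked Rspry1, Psme3ip1 and LOC115486880. The mitochondrial chaperonin pair Hspd1 and Hspe1 shared the 229 bp peak 766, at 143 and 48 bp from their starts. Of the genes marked at the 5′ end, 85 of 439 (19.4%, 15.9 to 23.3) had a gene on the opposite strand starting within 1 kb, against 10.4% of all genes of known strand. Both partners of such a pair can be marked by the same peak, so they are counted here as genes and not as separate regions.

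The promoters of the marked genes were rich in G, C and CpG, although not all of them overlapped a peak. A listed promoter was used for 478 of the marked genes, taking the start farthest upstream, and for 17274 genes in all, of which these are 2.77%. Median GC content was 66.3% (quartiles 60.0 and 72.0) in the marked promoters and 56.3% (48.3 and 64.3) in all. The ratio of observed to expected CpG had medians of 0.82 and 0.59. When CpG-rich was taken as a GC content of at least 55% with a ratio of at least 0.6, 365 of the 478 marked promoters (76.4%, 72.4 to 79.9) and 7218 of all 17274 (41.8%) were CpG-rich. Seen from the genome, 5.06% of CpG-rich and 1.12% of CpG-poor promoters belonged to a marked gene.

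GC boxes were frequent in the same promoters. GGGCGG on either strand occurred in 378 of 478 marked promoters (79.1%, 75.2 to 82.5) and in 46.9% of all, with a mean of 2.41 against 1.04 per promoter. Where the peak itself overlapped the promoter window, 297 of 325 (91.4%, 87.8 to 94.0) held a GC box. The box nearest to the peak centre was a median of 46 bp away (quartiles 19 and 140). Of these 325 promoters 85.2% were CpG-rich, and they held 2.94 boxes on average in 300 bp. The distance from other positions in them was not computed, so the 46 bp does not show that peaks centre on GC boxes. Within CpG-rich promoters alone the figures were 89.0% (85.4 to 91.8) of the marked and 79.9% of all, with means of 2.85 and 1.99 boxes.

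The share of genes marked followed the number of GC boxes. It was 1.09% (0.897 to 1.32) for promoters with 0 boxes, 2.75% (2.25 to 3.34) with 1, 4.24% (3.45 to 5.19) with 2 and 11.4% (9.22 to 14.0) with 5 or more. Among CpG-rich promoters it was 2.75% (2.03 to 3.72) with 0 boxes and 11.5% (9.31 to 14.2) with 5 or more. Neighbouring steps often overlapped in their intervals, as with 3 boxes (6.40%, 5.08 to 8.04) and 4 boxes (6.52%, 4.79 to 8.82). CpG-poor promoters had 0.777% (0.604 to 0.999) with 0 boxes and 3.94% (2.57 to 6.01) with 2, and only 25 of them held 5 or more. Median GC content was 68.3% in the marked CpG-rich promoters and 65.7% in all CpG-rich ones, and its part in these shares was not tested.

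**Figure D2:**
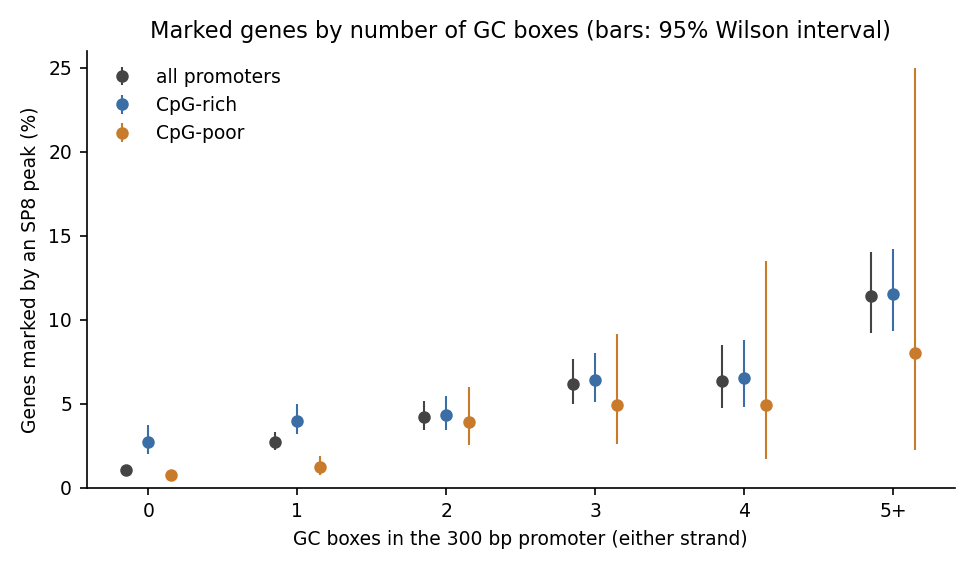
Percentage of genes marked by an SP8 peak (vertical axis) by the number of GC boxes in the 300 bp promoter (horizontal axis), for all promoters and for CpG-rich and CpG-poor ones, with 95% Wilson intervals as bars. All promoters go from 1.09% with 0 boxes to 11.4% with 5 or more, and the CpG-poor intervals widen to the right as promoters become few.

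For the other motifs, the interval of the marked CpG-rich promoters included the share of all CpG-rich ones. The CACCC box CCACCC was present in 41.6% (36.7 to 46.8) of the 365 marked ones and 38.7% of all 7218. The CCAAT box CCAAT, bound by NF-Y, was at 36.2% (31.4 to 41.2) and 36.4%, the ETS core CCGGAAG at 17.8% (14.2 to 22.1) and 19.8%, and the E-box CACGTG at 12.1% (9.10 to 15.8) and 11.8%. The CRE site TGACGTCA, the NRF1 core GCGCATGC and the YY1 core AAGATGGCG were at 3.56%, 4.66% and 4.11% of the marked and 3.85%, 6.17% and 3.46% of all. All motifs were searched on both strands, the GC box and the CACCC box can overlap other G-rich sites, and a match of letters is not shown to be bound.

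AT-rich motifs were scarce. TAATTA, the homeodomain site, was found in 6 of 478 marked promoters (1.26%, 0.577 to 2.71) and in 4.61% of all promoters. The TATA box TATAAA was in 25 (5.23%, 3.57 to 7.61) against 13.4%. Among CpG-rich promoters TAATTA was in 1 of 365 (0.274%, 0.0484 to 1.54) and in 1.01% of all 7218, and TATAAA was in 3.56% (2.09 to 6.0) and 4.06%, intervals that include the shares of all CpG-rich promoters.

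**Figure D3:**
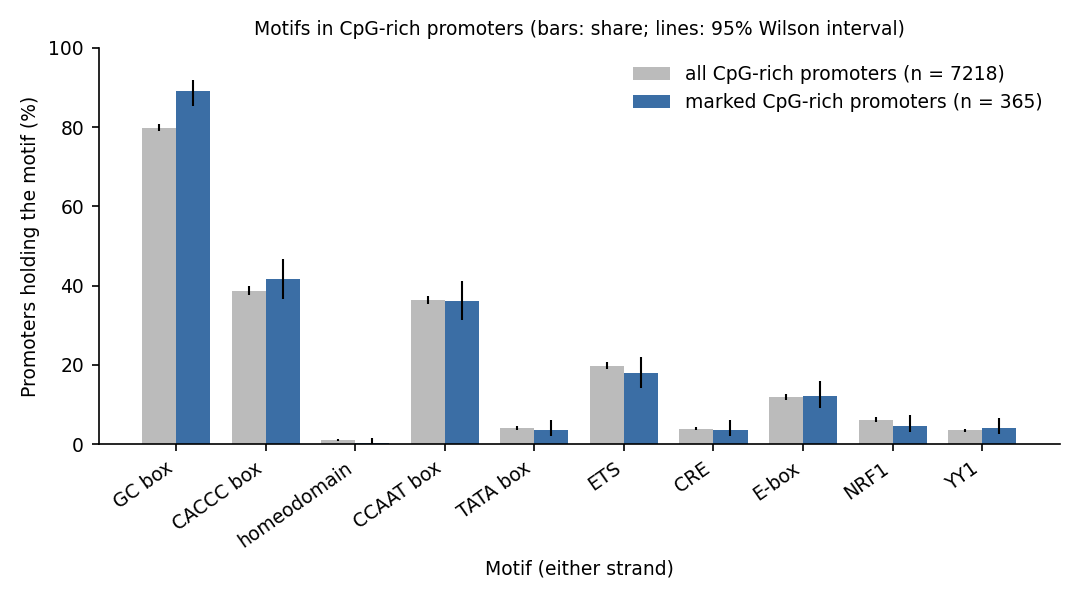
Percentage of CpG-rich promoters that hold each of 10 motifs on either strand (vertical axis, bars; lines are 95% Wilson intervals), for the 365 marked promoters and for all 7218. The GC box is at 89.0% and 79.9%, and for the other motifs the interval of the marked promoters includes the share of all.

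Genes were then grouped by their roles. Across 42 lists given by symbol, which hold 4960 genes and 121 of the 605 marked ones, 17 lists had a larger share marked than the 2.81% of all protein-coding genes, and 13 had none. Lists overlap, as with Msx2 and Dlx2, which are both limb ectoderm and homeobox genes.

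SP and KLF genes, the family of SP8 itself, had the largest share: 9 of 26 (34.6%, 19.4 to 53.8) were marked, each by its own peak. They were Sp1, Sp3 and Sp4 of 9 SP genes and Klf3, Klf10, Klf12, Klf13, Klf14 and Klf16 of 17 KLF genes. Sp1 and Sp3 are widely expressed GC-box factors, and several KLF proteins act as repressors at CACCC sites. The peaks lay at 171 bp (Klf3), 250 bp (Sp4), 371 bp (Klf13), 380 bp (Sp1), 469 bp (Klf10), 534 bp (Klf16), 838 bp (Sp3), 976 bp (Klf14) and 988 bp (Klf12) from a boundary. These distances are all above the median of 166.5 bp over the 528 peaks. With the window at 500 bp the count fell to 5 of 26, against 2.33% of all genes. Among CpG-rich promoters, 5 of 13 SP and KLF genes were marked, against the 5.06% of all.

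Other transcription factor families were marked less evenly. Of 44 forkhead genes, 5 (11.4%, 4.95 to 24.0) had a member, among them Foxj1, the ciliogenesis factor, with peak 5 of the list (783 bp, chromosome 11, 116334978 to 116335761), Foxj3, Foxp4 and Foxo3, a factor restrained by insulin signalling. Of 39 Hox genes, 4 (10.3%) did, namely Hoxa4, Hoxb2, Hoxc6 and Hoxc13, with peaks of 823, 1060, 754 and 408 bp. Strand was not given for these 4, so which of their ends was marked is not known. The list of other homeobox genes, taken by symbol pattern, gave 6 of 104 (5.77%, 2.67 to 12), which were Msx2, Dlx2, Tgif2, Pknox1, Nkx3-2 and Six5. The pattern does not hold all homeobox genes. Among those left out, Bsx, Pou2f1, Pou3f2 and Onecut2 were marked too and are not in this count. None of 19 Sox genes and none of 17 T-box genes had a peak within 1 kb, with upper interval limits of 16.8% and 18.4%. Zfp zinc-finger genes, a large group with many repressors of repeats, gave 14 of 394 (3.55%, 2.13 to 5.88), close to the background. The first 6 in list order were Zfp91, Zfp597, Zfp503, Zfp839, Zfp131 and Zfp408.

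The limb ectoderm list of 30 genes had 4 marked members (13.3%, 5.31 to 29.7): Fgf8, Msx2, Jag2 and Dlx2. Fgf8, the main FGF of the ridge, had a 616 bp peak (chromosome 19, 45742891 to 45743507) centred 258 bp outside the gene. Jag2, a Notch ligand of the ridge, had a 322 bp peak (chromosome 12, 112928852 to 112929174) inside the gene, 799 bp from its start. None of the 30 limb mesenchyme genes was marked, which allows a share of up to 11.4% by the Wilson interval. Of the 13 genes chosen as markers of the ectoderm, 2 (Fgf8 and Msx2) were marked, and of 8 mesenchyme markers 0. A list of binding sites does not measure RNA, so this does not check which cells were in the sample.

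Signalling genes were marked at several steps of each pathway. For Wnt the count was 6 of 64 (9.38%, 4.37 to 19), and these were receptors and intracellular or membrane regulators: the Frizzled receptors Fzd2, Fzd4, Fzd5 and Fzd7, Znrf3, a ligase that removes Frizzled from the surface, and Gsk3b, the kinase that targets beta-catenin for degradation. The 4 Frizzled genes, a subfamily singled out after its values were seen, are 4 of 10 such genes. Their peaks, of 202 to 540 bp, were centred 46 bp (Fzd2), 62 bp (Fzd5), 70 bp (Fzd4) and 79 bp (Fzd7) from the boundary. None of the 19 Wnt ligand genes, also singled out afterwards, was marked. As for the 19 Sox genes, the interval of this count reaches 16.8%. It includes the 2.81% of all genes, so the ligands are not set apart.

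The Notch list gave 4 of 35 (11.4%, 4.54 to 26), with the receptor Notch1, the ligand Jag2, the glycosyltransferase Lfng that modifies Notch, and the target repressor Hey1. The Notch1 peak was of the smallest width in the list, 199 bp, and was 252 bp upstream of the gene (chromosome 2, 26503975 to 26504174). All 4 had numbers from 1093 to 1354, so the earlier part of the list, split evenly in order, marked 0 of 35. The FGF list gave 3 of 42 (7.14%): the ligand Fgf8, the decoy receptor Fgfrl1 and the feedback inhibitor Spry1. BMP and TGF-beta genes gave 5 of 59 (8.47%, 3.67 to 18.4), namely the ligands Bmp8a and Tgfb1, the effector Smad2, and the inhibitors Smad7 and Bambi.

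Chromatin and ubiquitin genes were, after the Zfp genes, the lists with most marked members. Of 135 chromatin regulators, 13 (9.63%, 5.71 to 15.8) were marked. The 6 with the lowest numbers were the H3K9 demethylase Kdm3a, the BAF complex subunit Phf10, Setd5, the H3K4 methyltransferase Kmt2a, the BAF subunit Smarcd1 and the DNA methyltransferase Dnmt3b. The Kdm3a relative Kdm3b was among the other 7. Dnmt3b had a 1110 bp peak (chromosome 2, 153649227 to 153650337), the ninth widest of all members. Of 181 ubiquitin enzymes, 12 (6.63%, 3.83 to 11.2) were marked. Among them were the deubiquitinases Usp12, Usp15, Usp20, Usp25, Usp28 and Usp32, the F-box genes Fbxo3, Fbxo11, Fbxo45 and Fbxo47 and the conjugating enzyme Ube2g1.

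Genes of RNA synthesis and processing were nearer to the background. The RNA polymerase and Mediator list gave 5 of 104 (4.81%, 2.07 to 10.8), with Polr2a, the largest subunit of RNA polymerase II, Gtf2a1, Taf9, Taf11 and Med20. Splicing and RNA-binding genes gave 6 of 149 (4.03%, 1.86 to 8.51): Ddx5, Prpf40b, Rbm4b, Srsf7, Sf3b2 and Lsm14b. Chaperones gave 4 of 85 (4.71%), which were Cct4, Hspd1, Hspe1 and Hspb11, the last named as a heat shock gene although it is a subunit of the ciliary transport complex. Kinesins and myosins gave 3 of 76 (3.95%): Kif3b, Kif22 and Myo9a.

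Genes of protein synthesis, protein breakdown and respiration were seldom marked. Across the lists of cytosolic and mitochondrial ribosomal proteins, translation factors, tRNA synthetases, the proteasome and the respiratory chain, 3 of 412 genes (0.728%, 0.248 to 2.12) had a member. They were Rpl37, Mrpl52 and Ndufaf8, an assembly factor of complex I. CpG-rich promoters are usual in these lists, at 211 of 331 (63.7%), and 3 of those 211 (1.42%, 0.485 to 4.10) were marked, beside 5.06% of all CpG-rich promoters. Their CpG-rich promoters held 1.36 GC boxes on average, fewer than the 1.99 of all CpG-rich promoters, and of the 30 with 3 or more boxes none was marked, which allows a share of up to 11.4% and so does not set them apart from the 7.89% of all such promoters.

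The 6 transcription factor families together gave 24 of 249 (9.64%, 6.56 to 13.9) and the 4 signalling pathways 18 of 200 (9.0%, 5.77 to 13.8). In their CpG-rich promoters the counts were 12 of 96 (12.5%, 7.30 to 20.6) and 10 of 95 (interval 5.82 to 18.3%), beside the same 5.06%. SP and KLF genes made up 9 of the 24 marked transcription factor genes and 5 of the 12 with a CpG-rich promoter. None was a Sox or T-box gene. The shares without the SP and KLF genes were not computed. The mean number of GC boxes in the CpG-rich promoters was 1.84 for the transcription factors, below the 1.99 of all, and 2.92 for the signalling genes. With 3 or more boxes, 6 of 24 transcription factor promoters and 7 of 47 signalling promoters were marked, beside 7.89% of all such promoters. The part of GC boxes in the shares of these groups was not tested. No test was made of any list, since genes are not replicates, and nothing is shown to be particular to a list by these counts.

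Cell cycle genes had 2 of 110 marked (1.82%), the mitotic inhibitor kinase Wee1 and Cdk9, which despite its name is a kinase of transcription elongation. The list of replication-dependent histones, taken by symbol pattern, had 2 of 95, H4c2 and H2az2, of which the latter encodes a variant made outside S phase. The 1 small GTPase of 85 was Rab40c. Solute carriers had 6 of 346 (1.73%, 0.797 to 3.73), namely Slc4a7, Slc23a3, Slc25a10, Slc30a4, Slc44a1 and Slc44a2, and ion channels 2 of 204, Cacng2 and Kcnmb4.

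The lists of epithelial surface and matrix genes are small, and all their intervals included the 2.81% of all protein-coding genes. None of 43 cadherin and desmosome genes was marked, which allows a share of up to 8.20%. Keratins had 1 of 53, Krt14, the keratin of basal epidermal cells, whose 287 bp peak (chromosome 11, 100206437 to 100206724) was inside the gene, 930 bp from its start. Tight junction genes had 1 of 32 (Cldn23, 3.13%) and protocadherins 1 of 69 (Pcdh1, 1.45%). Integrins, laminins and collagens had 2 of 86 (Itgb1 and Lamc1, 2.33%). Serpins had 1 of 63, Serpine2, a protease inhibitor.

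Large families used mainly in other tissues had none. No peak was within 1 kb of any of 1105 olfactory receptor, 350 vomeronasal receptor, 93 cytochrome P450, 70 defensin, 56 keratin-associated protein or 102 cytokine and chemokine genes. Upper interval limits were 0.346% for the olfactory and 1.09% for the vomeronasal receptors. For the other 4 lists, in the order given, they were 3.97%, 5.20%, 6.42% and 3.63%. Those 4 intervals include the 2.81% of all genes, so the counts of 0 do not set these lists apart. With the keratins and serpins these 8 families gave 2 of 1892 (0.106%, 0.0290 to 0.385), and 22 of their 1601 listed promoters (1.37%) were CpG-rich. Leaving the 1455 olfactory and vomeronasal genes out of the background raised it from 2.81% to 3.01%.

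**Figure D4:**
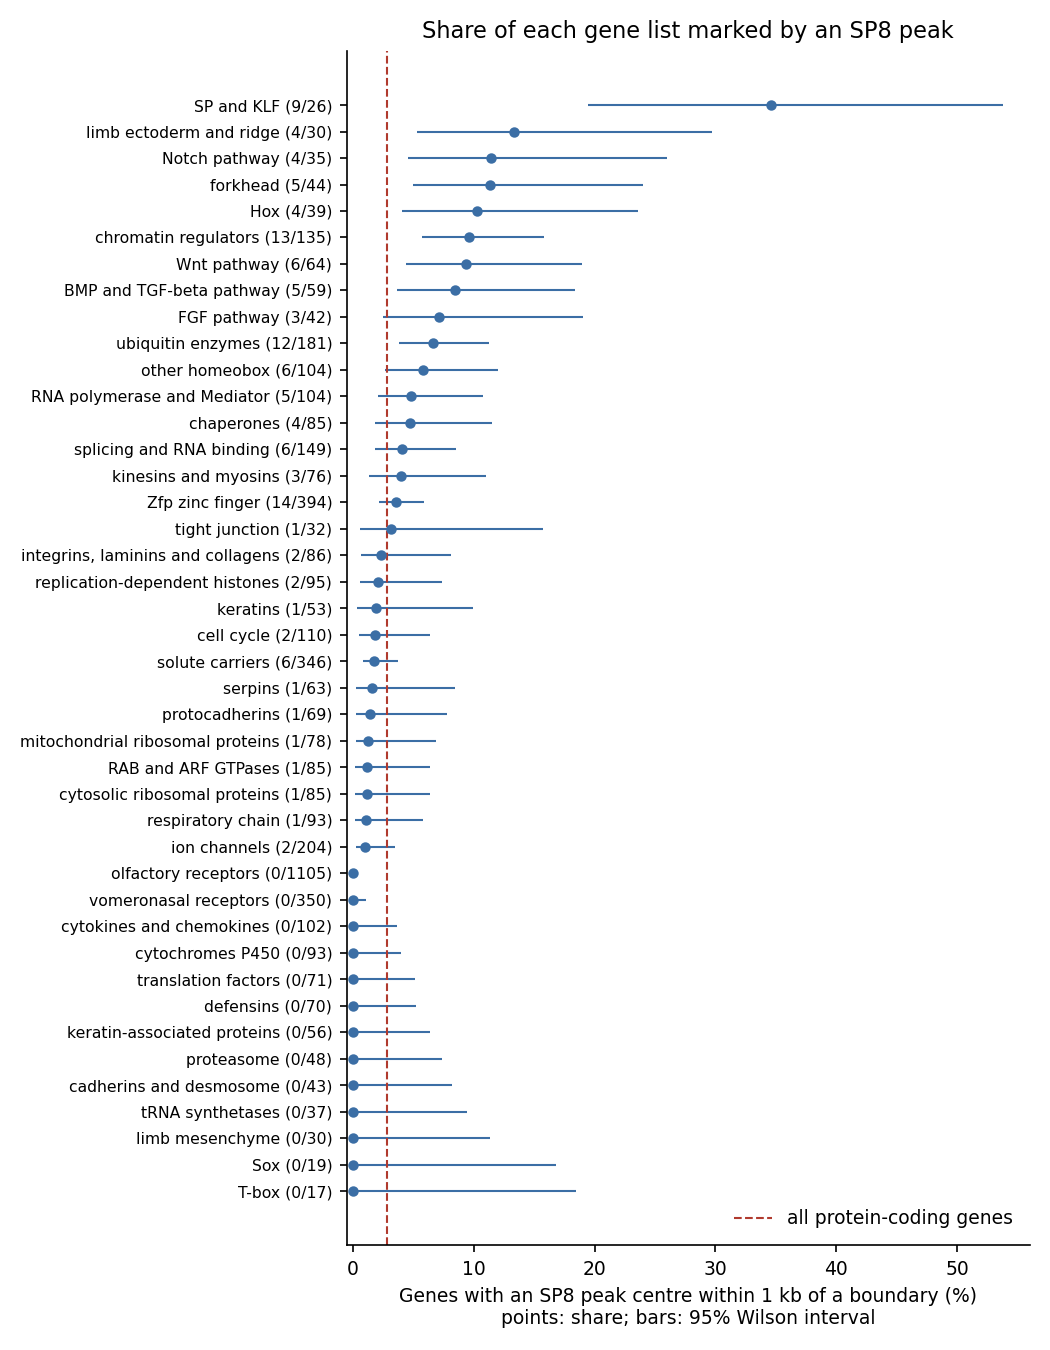
Percentage of the genes of each list with an SP8 peak centre within 1 kb of a boundary (horizontal axis), as points with 95% Wilson intervals, with the number marked and the size of each list in its label. The dashed line is the 2.81% of all protein-coding genes. SP and KLF genes are highest at 34.6%, and 13 lists are at 0.

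The members with the lowest numbers in the list were at genes of varied function. Peak 2 (751 bp, chromosome 11, 74648885 to 74649636) was at Cluh, an RNA-binding protein for mitochondrial messages, and peak 5 marked Rnf157 besides Foxj1. Peak 8 was centred 5 bp from the start of Tma16, peak 13 was 58 bp from Natd1, and peak 14 marked Unc50 besides Coa5. Peaks 19, 23, 24, 27 and 32 were at Garre1, Snx25, the microcephaly gene Mcph1, the COP9 signalosome subunit Cops6 and Cdkl3. What the number stands for is not stated by the authors.

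The widest member, of 2421 bp, was at Zfp503 (chromosome 14, 21983468 to 21985889), a zinc-finger repressor of the limb and brain, 719 bp inside its 3′ end. A second member, of 1100 bp (21988715 to 21989815), was 336 bp inside the 5′ end of the same gene. Dgkz, Fkbp4 and Nr2f2 were the other genes with 2 members. After Klf13, the next in width were at Trim8 (1664 bp), the Polycomb-linked Asxl1 (1222 bp), the Hippo pathway factor Tead2 (1195 bp), Pias3 (1164 bp), Fndc3b (1161 bp) and Asmt (1139 bp).

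In width the members overlapped with the other peaks. Their median was 344.5 bp (quartiles 260 and 504.25), against 336.5 bp (258.25 and 445.25) for the 454 peaks deep inside protein-coding genes and 331 bp (253 and 437) for the 465 outside them. Peaks wider than 1 kb numbered 15, 14 and 8 in these classes. The median number in the list was 794.5 for the members, 751 for peaks deep inside genes and 625 for those outside. The differences were not tested.

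**Figure D5:**
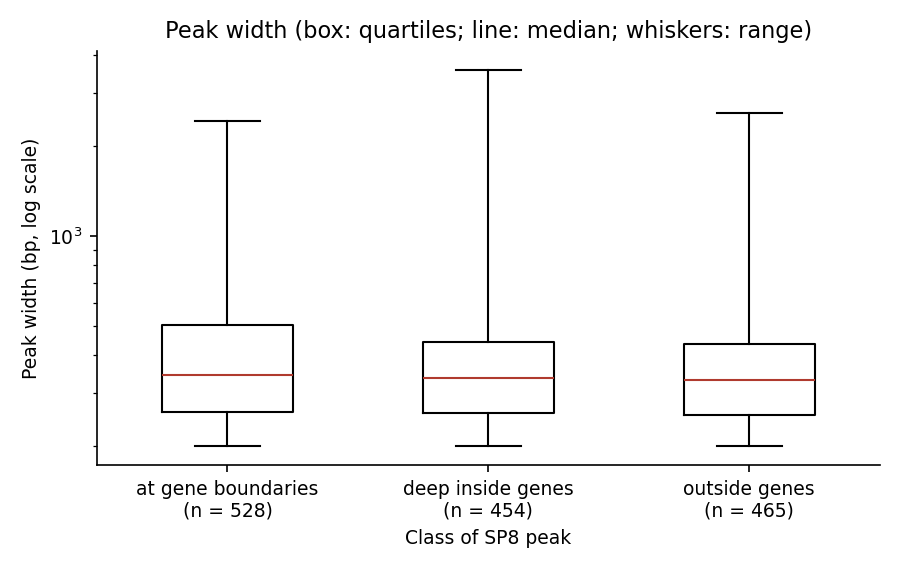
Width of each SP8 peak in bp on a log scale (vertical axis) for the 528 peaks at gene boundaries, the 454 deep inside genes and the 465 outside genes (horizontal axis), as boxes of the quartiles with the median and whiskers over the whole range. The medians are 344.5, 336.5 and 331 bp, and the ranges overlap almost fully.

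Marked genes were longer than protein-coding genes in general, with a median span of 25.2 kb (quartiles 9.99 and 64.2) against 17.4 kb (5.88 and 45.1). Noncoding genes were near some of the same peaks: 65 members (12.3%) were within 1 kb of a lncRNA gene boundary and 6 (1.14%) of a miRNA gene. A second peak of the list lay within 10 kb of 19 members (3.60%).

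By chromosome, the share of genes marked ranged on autosomes from 1.65% (14 of 850) on chromosome 14 to 3.88% (30 of 774) on chromosome 15. Chromosome X had 3 marked genes of 963 (0.312%) and 2 members among its 13 peaks. Of the placed peaks on a chromosome, the members made up 50.0% on chromosome 15 (28 of 56) and 19.2% on chromosome 13 (14 of 73).

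Just inside the edge of the window were the peaks at Zbtb2 (998 bp from the boundary, 455 bp wide) and Rbp2 (1000 bp, 531 bp wide). Just outside were those at Zfp518a (1001 bp, 425 bp wide) and Gprin1 (1012 bp, 250 bp wide).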

How the data were processed

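ChIP-seq of FLAG-tagged SP8 in limb ectoderm was represented by 1 peak list, deposited by the authors for SP8 replicate 1 and named for q 0.1 and a fold of 3. Its columns are the chromosome, start and end of each peak (used as deposited, since whether starts count from 0 is not stated) and a score column, in the authors' deposited file a running number in file order. The submitters' processing notes name FastQC, SAMtools, TopHat2, deepTools and MACS2 and the builds GRCm38 and mm10, without versions or roles. The control library and any pooling are not given in the sources used here.

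Peaks were placed by centre on RefSeq genes of GRCm38.p6. Genes starting below 3 Mb were left out, since mouse assemblies hold no sequence there and such positions belong to other sequences. Promoters and strand came from the RefSeq promoter table, by gene ID. It lists no promoter on chromosome 18. The 511 protein-coding genes there, with 12 members, thus have no strand given and are in none of the strand, CpG or motif shares. Base counts and motif matches of the promoters, Wilson intervals and shares were computed in Python 3.11.15 with pandas 2.3.3 and scipy 1.17.1. The steps were tested on simulated peaks and motifs. Exons were not used here.

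The members and gene lists were chosen with earlier results of these data known. Genes named are those of each list with a member (all if at most 12, otherwise the 6 with the lowest numbers), the 10 members with the lowest numbers, the 10 widest, the 5 that mark most genes and the 2 peaks on either side of the window. Subfamilies within a list, and Junb, Nr2f2, Dgkz, Fkbp4, Bsx, Pou2f1, Pou3f2 and Onecut2, were chosen after their values were seen. Some genes that this rule gives are not reported here. Of 10 promoters that the rule for sequences gave, 8 are printed. No test was made, since a single list has no replicates.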

Additional observations from a re-analysis of the deposited data

Results flagged for a closer look

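The list held 4 peaks on 2 sequences assigned to chromosome 4 without a position. No gene was compared with them, and no control list was analysed.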

How the results depend on the processing

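Across 37 alternatives for the main results, 27 stayed within the limit set, and so did 287 of 316 for single lists, motifs and other secondary values. The limit was the interval for shares and 1.5 times the value for counts. For medians of width, list number, GC content and gene length it was the standard deviation of the single values. That last limit is wide, so staying within it says little. The share of placed peaks at a boundary was 30.8% with a window of 500 bp, 43.0% with 2000 bp and 50.6% with 5000 bp, 33.0% and 39.9% in the earlier and later part of the list split evenly in order, and 27.2% with transcription starts of known strand only. Marked genes numbered 908 with 5000 bp, 276 and 330 in the earlier and later part, where fewer peaks were counted by construction. The GC box share rose to 91.4% where the promoter overlapped the peak. Keeping genes that start below 3 Mb, an alternative chosen after seeing the data, left 605 genes marked. That 27.2% leaves out, by construction, the 115 peaks at genes of unknown strand and the 19 at 3′ ends only. With starts of known strand only, none of 22 Hox genes was marked. This too holds by construction, since the 4 marked Hox genes have no strand given and were left out. The cause of the other differences was not tested.

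No paired analysis was possible because only 1 list, of 1 library, entered, which also leaves no replicate to drop. The unknown depth limits what is known of unmarked genes: binding below the authors' threshold and no binding cannot be told apart.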
